A study of Rattus norvegicus with 15 samples.

Results

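Cadherins and protocadherins are the adhesion molecules that hold embryonic cortical cells to their neighbours. Here they were read in frontal cortex of Wistar rat embryos whose mothers were fed normal chow (the Control group) or a diet with 60% of its calories from fat (HFD). The members are every gene whose name is Cdh followed by a number or begins with Pcdh, except the endothelial gene Cdh5, with a mean of at least 0.5 CPM (counts of the gene scaled to a common library total) over the 15 libraries. Where a name repeated, the row with the highest mean was kept. This gave 64 of the 32623 genes in the table. The weakest member was Cdh19, at a mean of 0.677 CPM. Just under the limit was Cdh26, at 0.256 CPM, followed by Pcdhb1, Cdh17 and Cdh16.

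The embryos were of 3 ages, given as the embryonic days E14.5, E16.5 or E18.5, which gave 6 groups of stage and diet, with 3 Control libraries and 2 HFD libraries at each stage. Normal-weight and obese females were mated with healthy males. Per the methods of the study, each library came from the pooled frontal cortices of 1 litter, so a library is a litter and not an embryo. Where 2 runs of values follow each other, Control comes first and then HFD. Levels are given as CPM scaled with TMM factors (a scaling that discounts the few genes taking most of the reads). Fold changes are log2 values ± standard error from edgeR's quasi-likelihood test, and a member was called where its Benjamini-Hochberg adjusted p over the 15354 genes tested was under 0.05. All 64 members passed the filter on low counts.

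The libraries held 5598195 to 9529978 counts. The library labelled E18.5 Control replicate 1 stood apart: 38 of the 64 members were below and 14 above every other E18.5 library, and 42 lay inside the E14.5 range. It was left out of the fit and of the E18.5 means, and its values are given apart for some members. The design set this because earlier results of these data placed it with the E14.5 libraries on markers outside this gene family. The member counts above were not the reason. The counts of called members with all 15 libraries are given for the stage steps and for diet. Unless stated, the fold changes and p-values of single members are from the 14 libraries of the fit. Against the label of cortex, the E14.5 libraries also held RNA of other tissues: the lens crystallins Cryaa, Cryba1, Crybb1, Cryga, Crygb and Crygd summed to 200.3 to 483 CPM there, against 0.747 to 2.41 CPM in the later libraries of the fit and 252 CPM in E18.5 Control replicate 1. Emx1, a gene of the dorsal forebrain, was at 13.7 to 48.0 CPM at E14.5, 54.7 to 74.8 CPM at E16.5 and 25.1 to 34.5 CPM in the E18.5 libraries of the fit, and at 10.6 CPM in E18.5 Control replicate 1. Its relative Emx2 was at 28.2 to 54.8 CPM, 36.2 to 50.9 CPM, 19.5 to 26.7 CPM and 30.3 CPM in the same order. In bulk tissue, fewer cells of a type and less RNA per cell cannot be told apart.

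Classical cadherins bind the same or a related cadherin on the neighbouring cell through their outermost calcium-binding domain, and hold on to the actin cytoskeleton through beta-catenin and alpha-catenin. Type I members such as E-cadherin and N-cadherin make firm junctions, while type II members differ from region to region of the brain and mark particular neurons and their connections. Protocadherins do not bind catenins. Delta protocadherins act in axon growth and cell sorting, and the clustered alpha, beta and gamma protocadherins are produced in different combinations from cell to cell, so that a neuron can tell its own branches from those of others. By these classes, the members were 5 type I and 12 type II classical cadherins, 2 other Cdh genes, 8 delta protocadherins, 3 other non-clustered protocadherins, and 34 clustered protocadherins (2 alpha, 16 beta and 16 gamma).

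The cadherin repertoire turned over between E14.5 and E16.5 in litters of both diets, and no member passed the test for diet at any stage. In Control, 16 members were higher and 5 lower at E16.5 than at E14.5, which is 32.8% of members against 23.4% of all genes tested (12.3% higher and 11.1% lower). In HFD, 25 were higher and 7 lower, 50% of members against 30.5% of all genes (16% higher). One of the members lower in HFD, Cdh19, met the rule of 0.5 CPM through its E14.5 libraries, so its fall is in part fixed by the choice of members. In both diets 13 members were higher and 5 lower, and no member was called in opposite directions. Over all 64 members the median log2 fold change was 0.38 in Control and 0.56 in HFD, against -0.01 over all genes tested in each diet. The epithelial cadherins Cdh1 and Cdh3 and the mesenchymal cadherin Cdh11 were among those that fell, and the neuronal cadherins Cdh4, Cdh8, Cdh10 and Cdh13 among those that rose. The step from E16.5 to E18.5 gave fewer calls, with 8 members higher and 0 lower in Control (12.5%, against 10.6% of all genes, 4.72% higher and 5.87% lower) and 4 higher and 1 lower in HFD (7.81%, against 5.87% of all genes, 2.02% higher and 3.85% lower). With the p left unadjusted, 29 members were higher and 7 lower in the first Control step (18.2% and 18% of all genes), and 22 and 2 in the second (12.4% and 13.6%). Members whose libraries did not overlap between stages were 29 higher and 6 lower in the first Control step (21.1% and 15.6% of all genes) and 50 and 7 in HFD (37.1% and 30.7%). In the second step they were 29 and 2 in Control (23.5% and 22.6%) and 33 and 14 in HFD (27.2% and 27.9%).

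The Control calls depended on leaving out the library that stands apart. With all 15 libraries in the edgeR fit, 0 members were called in either Control step, as were 0% of all genes, and the smallest adjusted p of a member was 0.0870 in the first step and 0.195 in the second. By an unadjusted p under 0.05, 32 members were higher and 6 lower in the first of these, where 27.9% of all genes were under it in either direction, and 12 higher and 2 lower in the second, against 13.2%. DESeq2 on the same 15 libraries called 9 members in the first and 2 in the second, against 11% and 1.44% of the genes it tested. Those in the second were Cdh1 and Cdh6, both higher at E18.5 (2.77 and 0.97), and neither was called there with 14 libraries. In E18.5 Control replicate 1 Cdh1 was at 35.1 CPM and Cdh6 at 22.1 CPM. The other E18.5 libraries held 1.38 to 5.18 CPM and 12.5 to 17.8 CPM. The HFD step from E14.5 to E16.5 still gave 24 called members, against 16.8% of all genes. The second HFD step gave 0 members and 0.00649% of all genes, with 6 members higher and 4 lower by an unadjusted p under 0.05 (12.9% of all genes in either direction) and 0 called by DESeq2 (2.23% of all genes). Single litters mattered too: the first Control step gave 13 called members without E16.5 Control replicate 1 and 12 without E16.5 Control replicate 2. The share of all genes called without these litters is not given here, so the lower counts cannot be told from a loss of calls over all genes.

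**Figure D1:**
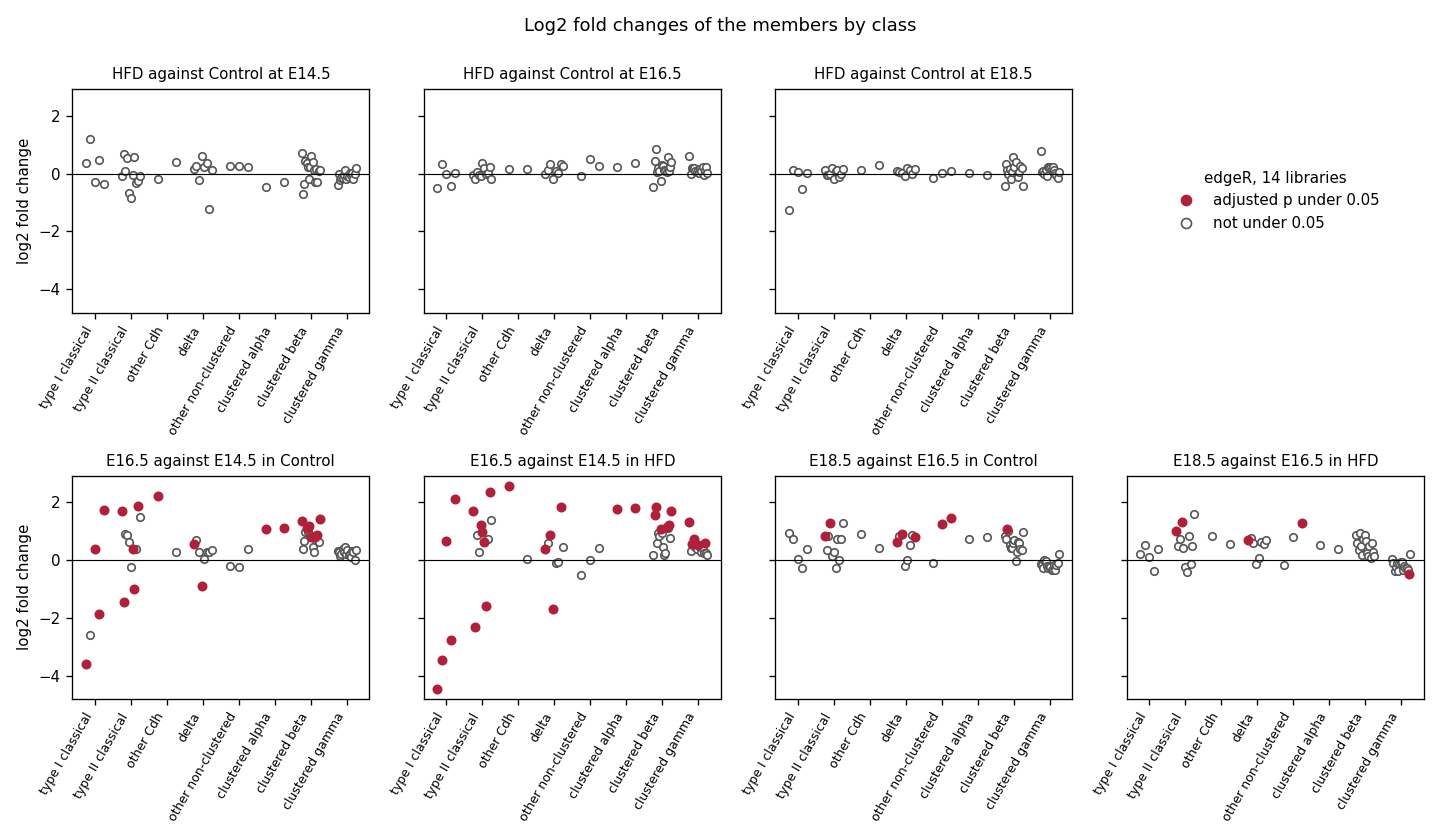
Log2 fold change (y axis) of each member except Cdh19, by class (x axis), for HFD against Control at each stage (top) and for the stage steps within each diet (bottom). Filled points passed an edgeR adjusted p of 0.05 with 14 libraries: 0 points in the diet panels, and 21 and 31 in the panels of E16.5 against E14.5, in Control and in HFD.

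E-cadherin and its epithelial relative P-cadherin were the type I cadherins that fell in both diets. Cdh1, which encodes E-cadherin, the main cadherin of epithelial junctions, stood at 26.9, 40.2 and 13.1 CPM (Control) and 33.7 and 34.8 CPM (HFD) at E14.5. At E16.5 it was at 1.31, 3.05 and 2.22 CPM (Control) and 1.39 and 1.84 CPM (HFD). No E16.5 library reached the lowest E14.5 library, and the step was -3.60 ± 0.41 in Control and -4.46 ± 0.52 in HFD (edgeR adjusted p = 0.000491 and 0.000198). At E18.5, the level stayed low, at 5.18 and 3.62 CPM (Control) and 1.38 and 2.21 CPM (HFD), whereas E18.5 Control replicate 1 held 35.1 CPM, inside the E14.5 range.

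Cdh3 encodes P-cadherin, which lies beside E-cadherin in the basal layer of epithelia. It went from 37.2, 36.2 and 12.97 CPM (Control) and 35.9 and 42.4 CPM (HFD) at E14.5 to 8.78, 8.05 and 7.41 CPM and 4.81 and 7.24 CPM at E16.5. Again the stages did not overlap, with -1.87 ± 0.36 in Control and -2.77 ± 0.45 in HFD (edgeR adjusted p = 0.00431 and 0.00101). Cdh15, the M-cadherin of developing skeletal muscle, was uneven among E14.5 Control litters, at 6.68, 1.37 and 0.579 CPM, and at 8.19 and 4.23 CPM in HFD. It was under 1 CPM in every E16.5 library and passed the test in HFD (-3.45 ± 0.97, adjusted p = 0.0188) and not in Control (-2.59 ± 0.87, adjusted p = 0.0508).

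Among the type II cadherins, Cdh11 and Cdh6 fell between E14.5 and E16.5 in both diets. Cdh11 encodes OB-cadherin, which is typical of mesenchyme and bone-forming cells and is also made in the brain. It stood at 224, 231 and 185 CPM (Control) and 284 and 389 CPM (HFD) at E14.5, and at 73.4, 76.6 and 87.9 CPM and 59.7 and 82.9 CPM at E16.5. The fall was -1.46 ± 0.18 in Control and -2.30 ± 0.22 in HFD (edgeR adjusted p = 0.000539 and 6.61e-05), and the E18.5 levels of 86.2 to 117 CPM also stayed under every E14.5 library.

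Cdh6, a type II cadherin of kidney and of subdivisions of the forebrain, was lowest at E16.5. Its levels were 19.2, 19.9 and 14.7 CPM (Control) and 23.2 and 29.3 CPM (HFD) at E14.5, then 6.72, 9.86 and 10.4 CPM and 9.11 and 9.08 CPM. The first step passed the test in both diets (-1.01 ± 0.20 and -1.59 ± 0.24), and the later values of 12.5 to 17.8 CPM at E18.5 lay above every E16.5 library without passing it (edgeR adjusted p = 0.0629 in Control and 0.0708 in HFD). Cdh19, a cadherin of neural crest cells and Schwann cell precursors, was found at 1.15 and 3.70 CPM in E14.5 HFD and at 0 counts in both E16.5 HFD libraries. Against a floor of 3 counts per library it was at least 6.27-fold lower there, and in Control it went from 2.05, 0.686 and 0.347 CPM to 0.187, 0 and 0.212 CPM. These levels are a description, with no test, since Cdh19 met the rule of 0.5 CPM only through the E14.5 libraries, where it was high.

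The markers of tissues around the cortex fell in the same libraries. Of 12 head mesenchyme and meninges markers, 11 were tested, and 10 in Control and 11 in HFD were lower at E16.5. Their summed level was 1827 to 5786 CPM in E14.5 Control and 4345 to 4878 CPM in E14.5 HFD, 678 to 1098 CPM and 451 to 542 CPM at E16.5, and 816 to 1288 CPM and 516 to 621 CPM at E18.5. Col1a1, Col3a1 and Pdgfra remained detected in every library, while Twist2 was at 0 in E16.5 HFD replicate 1.

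Of 8 surface epithelium markers, 7 were tested, and 5 in Control and 6 in HFD were lower at E16.5. These summed to 39.3 to 124 CPM in E14.5 Control, 127 to 181 CPM in E14.5 HFD, 6.16 to 20.4 CPM in E16.5 Control, 6.58 to 17.9 CPM in E16.5 HFD, 14.46 to 26.7 CPM in E18.5 Control and 8.96 to 10.2 CPM in E18.5 HFD. The basal keratins Krt5 and Krt14 were at 0 in E16.5 HFD replicate 1, and Krt14 also in E18.5 Control replicate 3. Of 8 skeletal muscle markers, 7 were tested and 4 in each diet were lower, the sums being 7.09 to 104 CPM in E14.5 Control, 51.0 to 115 CPM in E14.5 HFD, 4.85 to 6.04 CPM in E16.5 Control, 7.97 to 8.55 CPM in E16.5 HFD, 9.64 to 16.6 CPM in E18.5 Control and 9.65 to 12.4 CPM in E18.5 HFD. The muscle regulator Myod1 was at 0 in E16.5 Control replicates 1 and 2 and in 3 of the 4 E18.5 libraries of the fit. Among markers of neural crest and Schwann cell precursors, Sox10 was at 4.40 to 25.8 CPM over the E14.5 libraries and 0.886 to 4.65 CPM over the later libraries of the fit, and Erbb3 at 9.15 to 37.5 CPM and 1.90 to 5.05 CPM. E18.5 Control replicate 1 held 4833 CPM of the mesenchyme markers, 121 CPM of the epithelium markers and 98.5 CPM of the muscle markers, with Sox10 at 17.96 CPM and Erbb3 at 28.5 CPM. The part of these tissues in the lower levels of Cdh1, Cdh3, Cdh6, Cdh11, Cdh15, Cdh19 and Pcdh18 was not tested.

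**Figure D2:**
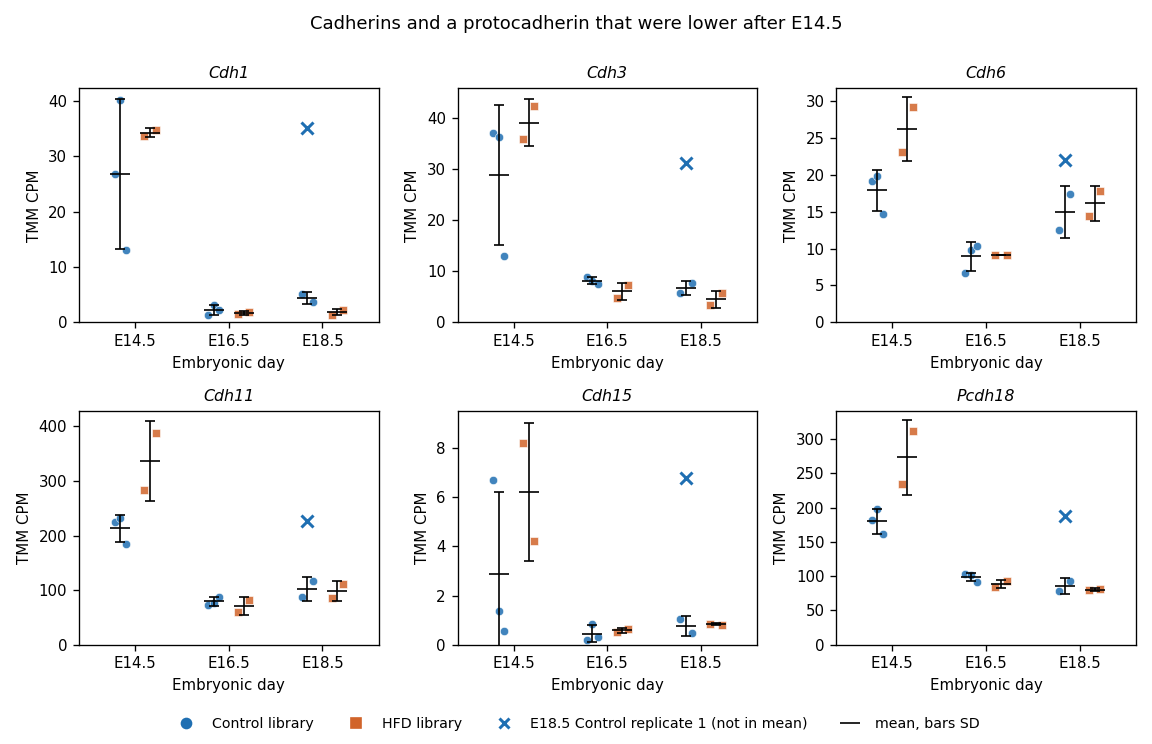
TMM CPM (y axis, from 0) in each library by embryonic day (x axis) for Cdh1, Cdh3, Cdh6, Cdh11, Cdh15 and Pcdh18, with the group mean and SD. Cdh1 fell from 13.1 to 40.2 CPM over the E14.5 libraries to 1.31 to 3.05 CPM at E16.5, and the cross marks E18.5 Control replicate 1, where it stood at 35.1 CPM.

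N-cadherin and R-cadherin rose over the same step. Cdh2, the N-cadherin of radial glial end feet and of neurons, took the most reads of any member. It stood at 276, 350.1 and 408 CPM (Control) and 288 and 272 CPM (HFD) at E14.5, and at 436, 448 and 480.3 CPM and 472 and 448 CPM at E16.5. The groups did not overlap, but the step was small: 0.37 ± 0.12 in Control and 0.65 ± 0.14 in HFD (edgeR adjusted p = 0.0394 and 0.00480). Cdh4, which encodes the R-cadherin of retina and brain, made a larger step, from 19.003, 13.1 and 25.1 CPM and 17.1 and 12.3 CPM to 87.0, 59.4 and 50.9 CPM and 69.2 and 64.5 CPM (1.75 ± 0.27 and 2.12 ± 0.34). Neither gene passed in the second step (edgeR adjusted p = 0.928 for Cdh2 and 0.421 for Cdh4 in Control), and Cdh4 lay at 67.9 to 106 CPM at E18.5.

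Among the type II cadherins of forebrain neurons, Cdh8 and Cdh10 rose. Cdh8, a cadherin of cortical neurons and of their synaptic partners, was at 15.4, 7.43 and 22.6 CPM (Control) and 14.2 and 11.1 CPM (HFD) at E14.5 and at 61.4, 60.1 and 49.4 CPM and 57.6 and 77.5 CPM at E16.5. The stages did not overlap, and the rise was 1.88 ± 0.30 and 2.35 ± 0.37 (edgeR adjusted p = 0.00186 and 0.000866). The values of Cdh10 went from 7.36, 3.66 and 7.41 CPM and 5.65 and 5.82 CPM to 22.6, 21.7 and 16.8 CPM and 17.3 and 22.1 CPM.

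Cdh10, Cdh18, Pcdh1 and Pcdh20 were the 4 members that rose in the second step in both diets. The first step of Cdh10 was 1.70 ± 0.24 in Control and 1.71 ± 0.29 in HFD (edgeR adjusted p = 0.00103 and 0.00114). At E18.5 it stood at 30.2 and 41.7 CPM (Control) and 40.7 and 38.2 CPM (HFD), a further 0.82 ± 0.24 and 1.01 ± 0.26 (adjusted p = 0.0458 and 0.0445). Cdh18, another type II cadherin of brain, rose in the second step, from 3.17, 2.64 and 4.02 CPM (Control) and 2.53 and 3.95 CPM (HFD) to 7.17 and 9.04 CPM and 6.38 and 9.53 CPM (1.28 ± 0.29 and 1.31 ± 0.33).

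Cdh13 showed the largest rise of any member in the first step in both diets. It encodes T-cadherin, which is held to the membrane by a lipid anchor and has no cytoplasmic tail. Its levels were 20.2, 6.86 and 14.8 CPM (Control) and 14.7 and 9.52 CPM (HFD) at E14.5, 90.7, 63.9 and 43.8 CPM and 73.0 and 77.0 CPM at E16.5, and 136 and 109 CPM and 142 and 126 CPM at E18.5. The first step was 2.23 ± 0.36 and 2.57 ± 0.44 (edgeR adjusted p = 0.00236 and 0.00161), and the second did not pass (0.145 and 0.257). Of the type II members not yet given, Cdh24 rose in the first step in both diets, Cdh20 and Cdh22 passed in HFD and not in Control, and Cdh7, Cdh9 and Cdh12 passed in neither step. The remaining Cdh gene, Cdh23, a tip-link cadherin of hair cells, passed in neither step.

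The neuron markers rose in the same step. All 10 were tested, 10 in Control and 9 in HFD were higher at E16.5, and they summed to 1356 to 3144 CPM in E14.5 Control, 1260.1 to 1866 CPM in E14.5 HFD, 5063 to 5446 CPM in E16.5 Control, 5073 to 6170 CPM in E16.5 HFD, 6912 to 7402 CPM over the E18.5 libraries of the fit, and 2579 CPM in E18.5 Control replicate 1. None of the 10 was at 0 in any library. Their part in the rises of Cdh4, Cdh8, Cdh10 and Cdh13 was not tested.

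**Figure D3:**
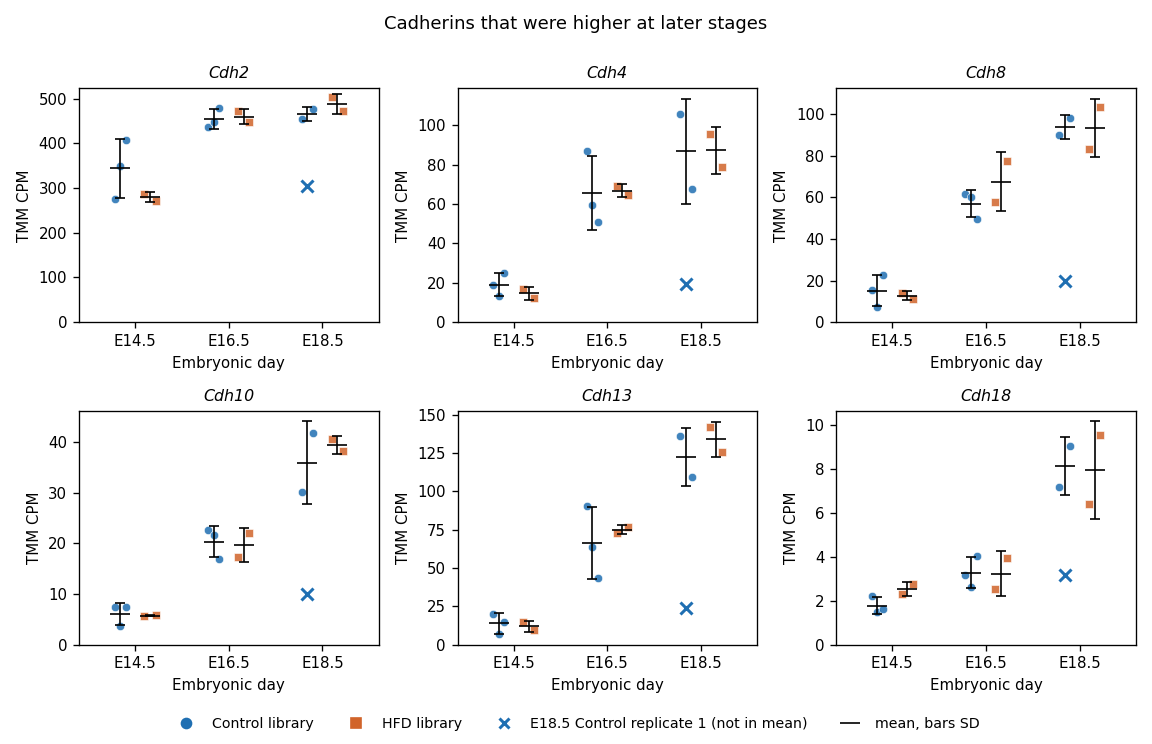
TMM CPM (y axis, from 0) in each library by embryonic day (x axis) for Cdh2, Cdh4, Cdh8, Cdh10, Cdh13 and Cdh18, with the group mean and SD. Cdh8 stood at 7.43 to 22.6 CPM over the E14.5 libraries and at 49.4 to 77.5 CPM at E16.5, and the cross marks E18.5 Control replicate 1, at 19.9 CPM for Cdh8.

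Of the 8 delta protocadherins, in the first step 1 was higher and 1 lower in Control (25%, against 23.4% of all genes), and 3 were higher and 1 lower in HFD (50%, against 30.5%). In the second step 3 were higher in Control (37.5%, against 10.6%) and 1 in HFD (12.5%, against 5.87%). Pcdh1, a delta-1 protocadherin found in brain and in airway epithelium, rose in both steps of both diets. It went from 40.2, 30.4 and 33.2 CPM (Control) and 38.8 and 37.3 CPM (HFD) to 51.9, 54.3 and 49.9 CPM and 54.2 and 50.5 CPM, and then to 83.7 and 77.3 CPM and 82.9 and 86.7 CPM. No stage overlapped the next, and the second step was 0.62 ± 0.12 in Control and 0.70 ± 0.14 in HFD (edgeR adjusted p = 0.00860 and 0.0111).

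Pcdh17, a delta-2 protocadherin that recruits actin regulators where axons touch, passed in the second step in Control and in the first step in HFD. In Control it stood at 45.5, 40.8 and 56.9 CPM at E14.5, 56.0, 63.9 and 59.1 CPM at E16.5 and 128 and 97.8 CPM at E18.5, and only the second step passed (0.91 ± 0.15, edgeR adjusted p = 0.00333). In HFD it stood at 43.3 and 37.8, 78.6 and 75.3 and 109 and 123 CPM, and only the first step passed (0.86 ± 0.17, adjusted p = 0.00240). The difference between the diets in the first step did not pass (0.57 ± 0.21, edgeR adjusted p = 0.549), so the steps were not shown to differ.

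Pcdh8, the activity-regulated protocadherin that draws N-cadherin into the cell at synapses, was at 52.2, 36.5 and 27.1 CPM (Control) and 21.1 and 11.3 CPM (HFD) at E14.5. At E16.5 it was at 46.5, 53.6 and 43.4 CPM and 60.5 and 60.8 CPM. The groups overlapped in Control (0.28 ± 0.24, edgeR adjusted p = 0.456) and did not in HFD, where the rise was 1.84 ± 0.31 (adjusted p = 0.00123). At E18.5, 80.2 to 95.7 CPM lay above every E16.5 library without passing the test in either diet.

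Pcdh18, a delta-2 protocadherin, was the delta member called lower, in the first step of both diets. It fell from 181, 198 and 161 CPM (Control) and 235 and 312 CPM (HFD) to 103, 102 and 91.6 CPM and 84.7 and 92.4 CPM, a step of -0.90 ± 0.13 and -1.69 ± 0.16 (edgeR adjusted p = 0.000927 and 5.8e-05). The later levels of 77.7 to 93.4 CPM at E18.5 stayed under every E14.5 library. E18.5 Control replicate 1 held 188 CPM.

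Pcdh9, a delta-1 protocadherin of cortical neurons, rose in the second Control step, from 69.3, 83.0 and 75.6 CPM to 119 and 148 CPM (0.80 ± 0.21, edgeR adjusted p = 0.0318), and in HFD went from 79.1 and 106 CPM to 142 and 158 CPM without passing (adjusted p = 0.105). Pcdh10, which acts in the growth of striatal axons, lay at 22.3 to 54.3, 59.3 to 75.4 and 110.4 to 131 CPM at the 3 stages. These ranges do not overlap, yet no step passed (smallest edgeR adjusted p = 0.0562). Pcdh19, the X-linked epilepsy gene, lay at 64.9 to 111, 80.3 to 99.2 and 89.0 to 107 CPM, which overlap, and Pcdh7 passed in no step.

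Of the 3 other non-clustered protocadherins, Pcdh20 rose in the second step in both diets. It went from 2.24, 3.19 and 2.86 CPM (Control) and 3.42 and 3.42 CPM (HFD) to 5.58 and 9.64 CPM and 7.07 and 9.30 CPM (1.44 ± 0.28 and 1.27 ± 0.31, edgeR adjusted p = 0.00874 and 0.0351). Pcdh15, the partner of Cdh23 in hair-cell tip links, rose in Control (1.25 ± 0.32, adjusted p = 0.0272) and did not pass in HFD (adjusted p = 0.219). Pcdh12, an endothelial protocadherin, passed in no step and lay between 7.59 and 15.4 CPM over all libraries.

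The second-step calls rest on few libraries, and the share of all genes called without each library is not given here. In Control, leaving out any of its 5 libraries brought the count from 8 to between 1 and 4: 4 without E16.5 replicate 1 or 3, 3 without E16.5 replicate 2 or E18.5 replicate 3, and 1, Pcdh20, without E18.5 replicate 2. In HFD, leaving out any of the 4 libraries brought the edgeR count to 0, while DESeq2 and limma-voom on all 14 libraries called 8 and 6. With all 15 libraries, the second Control step of Pcdh17 was 0.63 ± 0.25 and that of Pcdh20 1.06 ± 0.42 (edgeR adjusted p = 0.327 and 0.327).

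**Figure D4:**
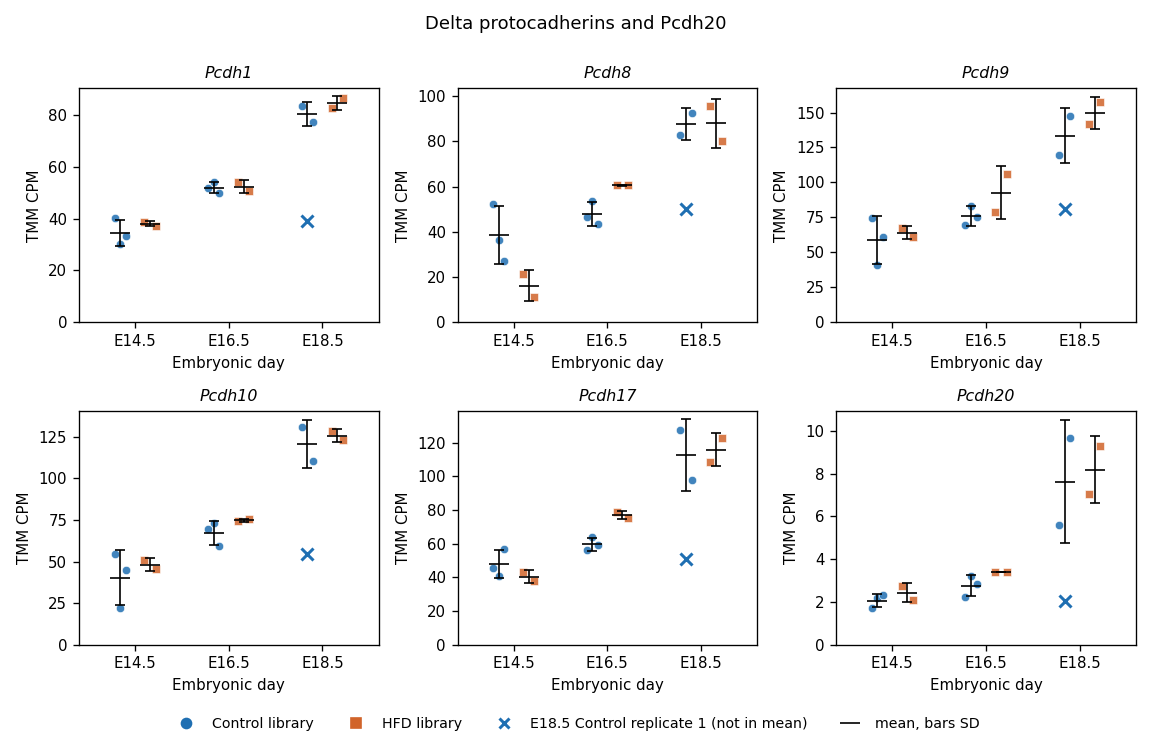
TMM CPM (y axis, from 0) in each library by embryonic day (x axis) for Pcdh1, Pcdh8, Pcdh9, Pcdh10, Pcdh17 and Pcdh20, with the group mean and SD. Pcdh17 stood at 97.8 to 128 CPM in the 4 E18.5 libraries of the fit and at 51.2 CPM in E18.5 Control replicate 1, marked by the cross.

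The clustered protocadherins lie side by side on rat chromosome 18 as an alpha, a beta and a gamma cluster. In the alpha and gamma clusters, each variable first exon is spliced to shared constant exons, while a beta gene is a single exon. The shared exons and the close likeness between copies make the split of reads between members of a cluster uncertain. The alpha cluster is counted here in the row named Pcdha13, for which the deposited table lists 10 transcripts, so that it stands for several isoforms, and in Pcdha4. A second row named Pcdha4 had a mean of 13.6 CPM, beside 14.9 CPM for the row kept. The rule on repeated names left it out, so it is in none of the alpha sums and ratios. Each beta gene has a promoter of its own, from which transcription of that gene alone starts.

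The 14 beta members that RefSeq holds a promoter for (rat build GRCr8, 250 bases before to 50 after the start) share the word GGTGGCGCTG, which was the 10-letter word shared by the largest number of them. It was searched on both strands and found in 14 of 14 beta promoters, 0 of 11 gamma promoters, 0 of 1 alpha promoter and 0 of the 22 promoters of other members, and in 74 of 33469 promoters of the whole table (0.221%). The word was picked from these same promoters, so its presence in them is a description. The most shared 10-letter word of the gamma promoters, GCTGTTCACC, was in 6 of 11 of them (54.5%). The start of the beta word lay 46 to 229 bases before the start of transcription, with a median of 68.5 bases. Shown are the windows around it in the 4 beta genes that rose between E14.5 and E16.5 in both diets and in 2 that passed in Control, with the word in capitals, on the plus strand of GRCr8.

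Pcdhb5, chr18:29302389-29302448: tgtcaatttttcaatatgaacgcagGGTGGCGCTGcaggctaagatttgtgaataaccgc
Pcdhb7, chr18:29328983-29329042: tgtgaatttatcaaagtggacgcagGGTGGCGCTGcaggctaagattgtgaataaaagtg
Pcdhb9, chr18:29379233-29379292: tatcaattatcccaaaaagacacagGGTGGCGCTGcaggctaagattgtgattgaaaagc
Pcdhb20, chr18:29485795-29485854: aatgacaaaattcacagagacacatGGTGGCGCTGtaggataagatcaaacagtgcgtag
Pcdhb19, chr18:29478749-29478808: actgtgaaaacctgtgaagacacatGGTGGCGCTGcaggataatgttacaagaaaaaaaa
Pcdhb10, chr18:29391763-29391822: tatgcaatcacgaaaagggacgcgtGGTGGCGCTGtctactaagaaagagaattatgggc

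The alpha and beta clusters were higher at each later stage, while the gamma cluster changed less. Summed alpha levels were 127, 52.4 and 126 CPM in E14.5 Control and 91.1 and 55.6 CPM in E14.5 HFD, then 233, 231 and 195 CPM and 236 and 292 CPM at E16.5. At E18.5 they reached 395 and 342 CPM (Control) and 378 and 367 CPM (HFD), with no overlap between stages. Both alpha rows passed in the first step of both diets: Pcdha13 with 1.07 ± 0.29 in Control and 1.78 ± 0.36 in HFD, and Pcdha4 with 1.12 ± 0.30 and 1.79 ± 0.36 (edgeR adjusted p between 0.00328 and 0.0227). In the second step neither passed (smallest adjusted p = 0.116).

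Beta levels summed to 64.5, 28.4 and 54.1 CPM in E14.5 Control and 53.9 and 49.2 CPM in E14.5 HFD. At E16.5 the sums were 82.7, 97.7 and 82.9 CPM (Control) and 86.6 and 114 CPM (HFD). By E18.5 the sums had reached 132 and 129 CPM (Control) and 132 and 143 CPM (HFD). Control replicate 2 was the lowest of the E14.5 libraries, and no stage overlapped the next.

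All 16 beta members had a positive fold change in the first step in both diets, with a median of 0.83 in Control and 0.93 in HFD, against -0.01 over all genes tested in each diet. In Control 7 of the 16 passed (43.8%, against 23.4% of all genes) and in HFD 6 (37.5%, against 30.5%). Pcdhb5, Pcdhb7, Pcdhb9 and Pcdhb20 passed in both. Pcdhb9, the furthest of these, went from 2.23, 0.800 and 1.97 CPM (Control) and 1.62 and 1.90 CPM (HFD) to 4.11, 5.41 and 4.02 CPM and 5.19 and 6.84 CPM (1.43 ± 0.33 and 1.70 ± 0.38, edgeR adjusted p = 0.00896 and 0.00522). Pcdhb20 rose by 1.17 ± 0.27 and 1.08 ± 0.33, Pcdhb5 by 0.80 ± 0.24 and 1.14 ± 0.30, and Pcdhb7 by 0.86 ± 0.27 and 1.23 ± 0.33. All 14 beta promoters in the table hold the word shown above, those of members that passed and of members that did not.

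Pcdhb19 and Pcdhb5 had the most reads of the beta members. Pcdhb19 stood at 2.17 to 7.04 CPM at E14.5, 8.40 to 13.6 CPM at E16.5 and 12.3 to 17.0 CPM at E18.5, and Pcdhb5 at 3.32 to 7.53, 8.78 to 11.3 and 14.1 to 15.7 CPM, and neither passed in the second step (smallest edgeR adjusted p = 0.129). Pcdhb10, Pcdhb19 and Pcdhb22 passed in the first Control step (1.36 ± 0.37, 1.11 ± 0.35 and 0.81 ± 0.25), and Pcdhb11 and Pcdhb12 in the first HFD step (1.55 ± 0.41 and 1.84 ± 0.33). None of these passed the test of the difference between diets (smallest edgeR adjusted p = 0.539, Pcdhb12). Pcdhb12 was the beta member called in the second step, in Control (1.06 ± 0.28, adjusted p = 0.0318). Beta members are few reads deep: Pcdhb9 and Pcdhb12 stayed under 11 CPM in every library.

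Gamma levels summed to 558 to 660.0 CPM at E14.5, 675 to 834 CPM at E16.5 and 649.8 to 777 CPM at E18.5. The median gamma fold change in the first step was 0.28 in Control and 0.45 in HFD. In Control 0 of 16 members passed (edgeR, against 23.4% of all genes), with 5 higher by an unadjusted p under 0.05 (18.2% of all genes). In HFD 6 passed (37.5%, against 30.5% of all genes): Pcdhga1, Pcdhga3, Pcdhga4, Pcdhga7, Pcdhga11 and Pcdhgb7. Of these Pcdhga3 had the smallest p, at 19.4 and 22.1 CPM and then 30.6 and 33.6 CPM (0.56 ± 0.12, edgeR adjusted p = 0.00436), beside 0.20 ± 0.10 in Control (adjusted p = 0.172). Pcdhga1, Pcdhga4, Pcdhga7, Pcdhga11 and Pcdhgb7 rose there by 1.32 ± 0.40, 0.72 ± 0.19, 0.53 ± 0.15, 0.55 ± 0.18 and 0.59 ± 0.15. The difference between diets did not pass for any gamma member (smallest adjusted p = 0.616, Pcdhga3).

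Pcdhgc3, a C-type isoform, held the most reads of the gamma members. It stood at 118 to 156 CPM at E14.5, 154 to 194 CPM at E16.5 and 184 to 223 CPM at E18.5, and passed in no step. In the second step, 15 of 16 gamma members in Control and 14 in HFD had a negative fold change (medians -0.19 and -0.23), opposite in sign to 15 and 16 of the 16 beta members (medians 0.59 and 0.48). Pcdhgb8 was the gamma member that passed, falling from 46.9 and 47.2 CPM to 32.8 and 33.8 CPM in HFD (-0.49 ± 0.13, edgeR adjusted p = 0.0473).

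The shift can be read within each library, where depth and scaling cancel. The alpha sum divided by the gamma sum was 0.0918 to 0.195 in the E14.5 libraries, 0.282 to 0.350 at E16.5 and 0.490 to 0.526 at E18.5. The beta sum divided by the gamma sum was 0.0508 to 0.0978, then 0.1002 to 0.136, then 0.170 to 0.199. In E18.5 Control replicate 1 the ratios were 0.186 and 0.0900, both inside the E14.5 range. The neuron marker sums given above rise over the same stages, and their part in these ratios was not tested.

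**Figure D5:**
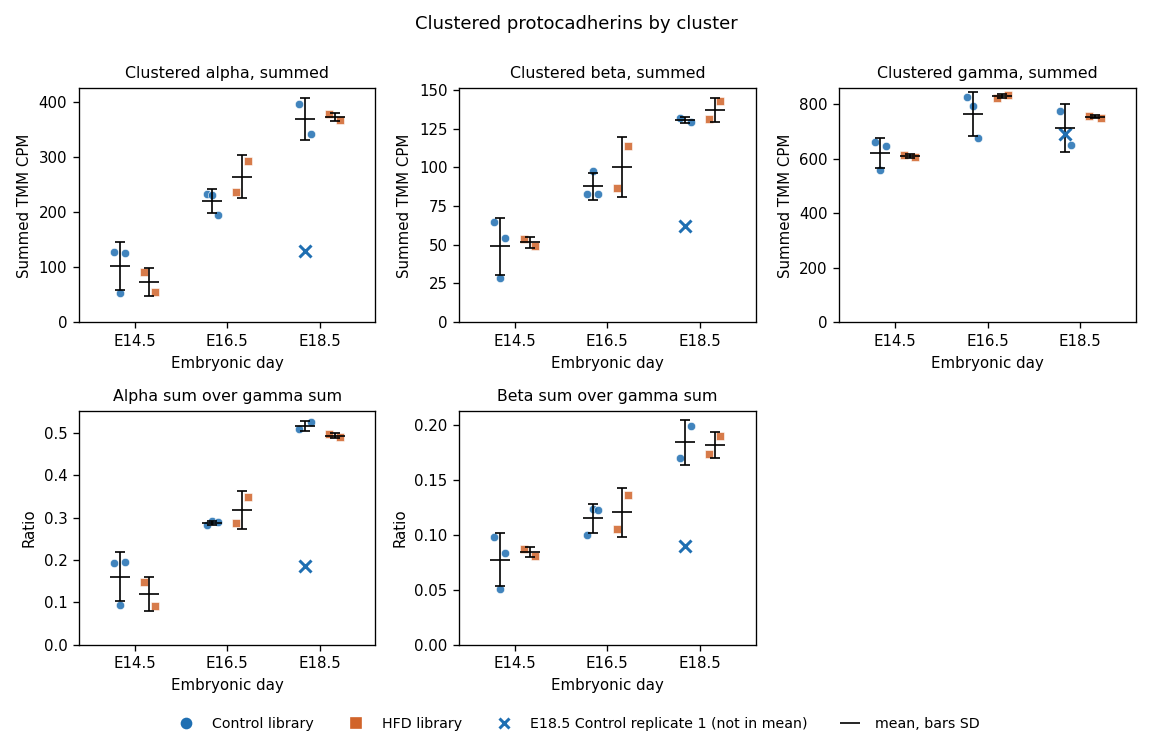
Summed TMM CPM of the alpha, beta and gamma protocadherins, and the alpha and beta sums divided by the gamma sum (y axes, from 0), in each library by embryonic day (x axis), with the group mean and SD. The alpha to gamma ratio went from 0.0918 to 0.195 over the E14.5 libraries to 0.490 to 0.526 at E18.5, with E18.5 Control replicate 1 (cross) at 0.186.

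The diet of the mother was the comparison the study set up. No member passed between HFD and Control at E14.5, E16.5 or E18.5 (edgeR, 0 of 64 at each, and 0% of all genes), nor did any in the tests of whether the diet effect changed between stages (0 of 64 and 0% of all genes in both; by an unadjusted p under 0.05, 6 higher and 2 lower between E14.5 and E16.5, against 3.73% and 4.18% of all genes, and 0 between E16.5 and E18.5, against 0.749% and 0.554%). By an unadjusted p under 0.05, 5 members were higher and 2 lower in HFD at E14.5, against 4.88% and 4.59% of all genes. At E16.5 there were 2 higher and 0 lower (0.821% and 1.52% of all genes), and at E18.5 0 higher and 1 lower (0.651% and 0.886%). Limma-voom called 0 members in each of these comparisons. DESeq2 called 2 at E14.5 (0.836% of all genes), 0 at E16.5 and 0 at E18.5.

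The members nearest to the threshold at E14.5 were Pcdh18, Pcdh8, Cdh11 and Cdh22. Pcdh18 was at 181, 198 and 161 CPM (Control) and 235 and 312 CPM (HFD), and Cdh11 was at 224, 231 and 185 CPM and 284 and 389 CPM. For both genes, each HFD litter was above each Control litter. The differences were 0.61 ± 0.14 for Pcdh18 and 0.67 ± 0.19 for Cdh11 (edgeR adjusted p = 0.233 and 0.308). Of all genes, 10.8% had HFD above Control without overlap, and 6 of 64 members did. Of the head mesenchyme and meninges markers, 11 of 11 had a positive fold change at E14.5, with a median of 0.61 and 0 passing the test (edgeR). Positive fold changes were also found for 7 of 7 tested markers of surface epithelium, 7 of 7 of skeletal muscle and 6 of 6 of lens. They were found as well for 4 of 4 of cartilage and 4 of 4 of neural crest and Schwann cell precursors, with 0 passing. The part of these tissues in the values of Pcdh18 and Cdh11 was not tested.

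Pcdh8 stood at 52.2, 36.5 and 27.1 CPM (Control) and 21.1 and 11.3 CPM (HFD), without overlap (-1.24 ± 0.29, edgeR adjusted p = 0.2496). Cdh22, a type II cadherin of brain and pituitary, was at 16.9, 12.9 and 13.8 CPM and 9.58 and 6.35 CPM (-0.85 ± 0.26, adjusted p = 0.319). The radial glia markers summed to 2127 to 2203 CPM in E14.5 Control and 1836 to 1903 CPM in E14.5 HFD, and those of intermediate progenitors to 98.2 to 145 CPM and 64.0 to 85.3 CPM, both lower in HFD without overlap. Of 8 radial glia markers 5, and of 3 intermediate progenitor markers 2, had a negative fold change, with 0 passing the test (edgeR). Of the radial glia markers, Nes was at 535 to 674 CPM (Control) and 326 to 404 CPM (HFD). Vim was higher in HFD, at 1052 to 1109 CPM and 1123 to 1190 CPM. Fold changes were negative for 5 of 5 diencephalon and midbrain markers (median -1.03), 6 of 10 of neurons and 4 of 6 of ventral forebrain, with 0 passing. They were negative for 1 of 3 cortex definers and 1 of 4 endothelial markers. The part of these lists in the values of Pcdh8 and Cdh22 was not tested. The lower side held 6 of 64 members without overlap, against 10.1% of all genes. DESeq2 called Pcdh18 (0.60, adjusted p = 0.0177) and Pcdh8 (-1.25, adjusted p = 0.00696), and also called Pcdh8 for the change of the diet effect between E14.5 and E16.5 (1.58, adjusted p = 0.0428, where it called 0.33% of all genes), beside 1.56 ± 0.39 and an adjusted p of 0.362 from edgeR. Without E14.5 Control replicate 1, edgeR called 1 member, Cdh15 (2.66, adjusted p = 0.0464). The muscle markers summed to 104 CPM in the Control litter left out, 7.09 and 7.99 CPM in the other E14.5 Control litters and 115 and 51.0 CPM in E14.5 HFD, and their part in this call was not tested.

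At E16.5, the smallest p values belonged to Pcdhb12, Pcdh17, Pcdhga3 and Pcdhgb8, each HFD litter being above each Control litter, and all with an edgeR adjusted p of 1. Pcdhb12 was at 2.05, 2.50 and 2.33 CPM (Control) and 3.54 and 4.87 CPM (HFD) (0.84 ± 0.28). Pcdh17 was at 56.0, 63.9 and 59.1 CPM and 78.6 and 75.3 CPM (0.35 ± 0.15), and Pcdhga3 and Pcdhgb8 differed by 0.21 ± 0.11 and 0.22 ± 0.12. Without overlap, 16 members were higher and 2 lower in HFD, against 9.71% and 7.87% of all genes.

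At E18.5 these members were Cdh1, Pcdhga1, Pcdhga7 and Pcdhgb4, again with an adjusted p of 1 (edgeR). Cdh1 was at 5.18 and 3.62 CPM (Control) and 1.38 and 2.21 CPM (HFD) (-1.24 ± 0.57), and with E18.5 Control replicate 1, at 35.1 CPM, the difference became -2.97 ± 0.95 (adjusted p = 0.821). Pcdhga1, Pcdhga7 and Pcdhgb4 differed by 0.78 ± 0.39, 0.24 ± 0.15 and 0.21 ± 0.16. Without overlap, 11 members were higher and 6 lower, against 14.1% and 14.9% of all genes. With all 15 libraries 0 members passed at any stage, against 0%, 0% and 0.00649% of all genes, and at E18.5 1 member was higher and 2 were lower by an unadjusted p under 0.05, against 4.99% of all genes in either direction.

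Genes that work with the cadherins were read in 6 lists holding 55 tested genes, and 0 of them passed for diet at any stage (edgeR). By an unadjusted p under 0.05, 6 were higher and 8 lower in HFD at E14.5 (4.88% and 4.59% of all genes), and 0 at E16.5 (0.821% and 1.52%) and at E18.5 (0.651% and 0.886%), and no other tool was run on these lists. In the first step 23.4% of all genes were called in Control and 30.5% in HFD, which is the background for the counts of each list. Of 13 tested catenins and junction partners, 3 were higher and 4 lower at E16.5 than at E14.5 in Control, and 5 and 5 in HFD (medians -0.09 and -0.28, against -0.01 over all genes). The neuronal alpha-catenin Ctnna2 rose from 34.6, 14.52 and 36.4 CPM to 60.9, 55.0 and 58.7 CPM in Control (1.00 ± 0.26), and the neuronal delta-catenin Ctnnd2 by 0.77 ± 0.15, while the epithelial alpha-catenin Ctnna1 fell by 0.51 and vinculin, Vcl, which ties alpha-catenin to actin, fell from 127, 135 and 81.1 CPM to 56.0, 51.6 and 54.2 CPM (edgeR adjusted p between 0.00123 and 0.0163). In the second step Ctnnb1 and Ctnna1 were lower and Ctnnd2 higher in both diets.

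Among 9 tested seven-pass and giant cadherins, which set planar polarity and tissue growth, 2 were higher and 2 lower in the first Control step and 5 and 3 in HFD (medians 0.34 and 0.88). Celsr1 and Celsr3, which guide planar polarity and axon tracts, rose by 1.06 ± 0.17 and 1.07 ± 0.24 in Control, and Fat1 fell by 0.65 (edgeR adjusted p between 0.00149 and 0.0086). Celsr1 then fell from 388, 337 and 292 CPM in Control to 163 and 162 CPM (-1.07 ± 0.20, adjusted p = 0.00657). Of 10 WAVE-complex and kinase partners of protocadherins, 3 were higher in Control (Cyfip2, Wasf1 and Fyn), and 3 higher and 1 lower in HFD. Of 7 proteases that cut cadherins, 0 were higher, with 1 lower in Control and 2 in HFD, Adam17 being lower in both.

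The 10 regulators of the clustered genes, such as Ctcf and the cohesin genes that loop an enhancer to a chosen promoter, gave 0 calls in the first step in both diets (edgeR, with 1 lower by an unadjusted p under 0.05 in each). In the second they gave 0 higher and 3 lower in Control (Rad21, Stag2 and Wapl, median -0.33), against 5.87% of all genes lower. In HFD 0 were called (median -0.27), against 3.85% of all genes lower. By an unadjusted edgeR p under 0.05, 8 were lower in Control and 5 in HFD, against 2081 and 1732 of the 15354 genes tested. Of the 6 transcription factors that repress Cdh1, Snai1, Snai2, Twist1 and Twist2 fell in the first step in both diets, and Zeb2 rose. Zeb1 rose in HFD (0.39 ± 0.12, edgeR adjusted p = 0.0310) and did not pass in Control (0.19 ± 0.10, adjusted p = 0.193). Snai2 changed by -2.60 ± 0.41 in Control and -4.42 ± 0.54 in HFD, and Twist1, itself one of the head mesenchyme markers, by -4.07 ± 0.32 and -5.98 ± 0.43.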

How the data were processed

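Total RNA of pooled frontal cortices was depleted of ribosomal RNA and sequenced. The deposited table holds estimated counts per gene and library, which the authors made with Bowtie2 on rat build rn6 and, per the methods, RSEM, while the submitters' processing notes name HTSeq. The values were whole numbers and were used as deposited, and no source used here says whether counting used strand. The total was 5598195 to 9529978 counts per library, and replicates are separate litters.

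Counts were filtered with filterByExpr and fitted with edgeR 4.0.16 (robust quasi-likelihood test, TMM factors, R 4.3.3), with 1 mean for each of the 6 groups of stage and diet over 14 libraries, E18.5 Control replicate 1 being left out. P-values were adjusted by Benjamini-Hochberg over the 15354 genes tested. CPM used TMM factors over all 15 libraries. Standard errors were taken from the fold change and its test statistic, and the method was tested on simulated data. The floor for a level of 0 was 3 counts per library and covers counting error only. DESeq2 1.42.0, limma-voom (limma 3.58.1), other filters and scalings, all 15 libraries, only the groups compared, a replicate block and leaving out each library were the alternatives.

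The members and gene lists were chosen with earlier results of these data known. Genes named with values are, in each step, up to 4 called members per direction of the Cdh genes and up to 3 of the non-clustered protocadherins by smallest p, called clustered members, the 2 clustered members with most reads per cluster, the 4 members with the smallest p for diet at each stage, and Cdh1, Cdh2, Cdh4, Cdh6, Cdh8, Cdh11, Cdh13, Pcdh8, Pcdh9, Pcdh10, Pcdh17 and Pcdh19. Cdh15, Cdh19, Pcdh12, Pcdh15 and the partner genes were named after their values were seen. Promoters came from RefSeq (build GRCr8), by gene symbol, for 48 of 64 members. The values of some marker genes are not reported here.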

Additional observations from a re-analysis of the deposited data

Results flagged for a closer look

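E18.5 Control replicate 1, which was left out of the 14-library fit and enters only the alternatives with all 15 libraries, held member levels outside those of the other E18.5 libraries. In it 14 members were above and 38 below every other E18.5 library, 12 lay inside, and 42 of the 64 lay inside the E14.5 range. Cdh1 stood at 35.1 CPM there, against 1.38 to 5.18 CPM in the other E18.5 libraries and 13.1 to 40.2 CPM over the E14.5 libraries. Among the markers, that library held 4833 CPM of the head mesenchyme and meninges list and 252 CPM of the lens list, and its neuron markers summed to 2579 CPM, which were levels of the E14.5 libraries. The cause was not tested.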

How the results depend on the processing

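The counts of called members were 21 and 8 in the Control steps, 32 and 5 in the HFD steps (first and second), and 0 for diet. With all 15 libraries they were 0, 0, 24 and 0, and with DESeq2 on those libraries 9, 2 (Cdh1 and Cdh6), 29 and 0. Fitting only the groups compared gave 12, 18, 35 and 13, and 0 in the second Control step with E18.5 Control replicate 1 included. These alternatives that add that library were in part chosen after seeing the data. DESeq2 gave 22, 11, 31 and 8 (22.7%, 12.9%, 26.2% and 8.09% of all genes), with 2 for diet at E14.5 and 1 for the change of the diet effect from E14.5 to E16.5. Limma-voom gave 22, 10, 31 and 6 (22.4%, 11.8%, 31% and 6.29% of all genes), other size factors (RLE) 21, 11, 32 and 5, no filter 24, 7, 35 and 4, and a minimum of 10 counts in every library 21, 11, 28 and 6. Leaving out 1 library at a time gave 12 to 26, 1 to 4, 17 to 30 and 0 to 0 members, 0 to 1 for diet at E14.5 and 0 to 0 for the other diet comparisons and for both tests of a change of the diet effect; where it left a group with 1 library, that library was taken to vary like the other groups. Under the alternatives, the sign was checked for part of the named members, in part of the comparisons, and none of these reversed. Cdh2, Cdh15, Cdh19, Cdh20, Cdh24, Pcdh9, Pcdh10, Pcdh15 and Pcdh19 were among those not checked. Of the checked fold changes, 36 lost their call with all 15 libraries, and 51 kept theirs or stayed uncalled. With DESeq2 on those libraries these numbers were 23 and 64. A replicate block gave 22, 9, 35 and 6 and 0 for diet. The labels do not say that the replicate numbers pair the samples, and they were not taken to do so. Of 28 pairs of libraries with the same number 10 had deviations correlated over 0.1 (r from -0.14 to 0.24), against 12 of 53 pairs with other numbers. In groups of 2 libraries the deviations mirror each other, so these counts cannot decide on pairing. The cause of the differing counts was not tested. Where no share of all genes stands beside a count, its change cannot be told from a change over all genes. Depth limits Cdh19, with 0 to 2 counts in each E16.5 library, and Cdh15, with 1 to 6.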
